A study of Mus musculus with 20 samples.

Results

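The interferon response genes are the transcripts that cells raise when they sense interferon, and 43 of them were followed here in the kidney. They were chosen by name, with earlier results of these data known, as a list of known interferon-stimulated genes and fall into 5 classes. These are 4 transcription factors, 22 effectors that are best known from the type I interferon response, 5 sensors of foreign nucleic acid and their partners, 9 interferon-inducible GTPases and 3 genes of antigen processing. The count tables held 24762 genes, and 42 of the 43 were found by their symbol. Ifit3b was found under its older symbol, I830012O16Rik. All 43 were among the 15549 genes that passed the filter on low counts.

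Poly(A) RNA of the whole kidney had been sequenced in 20 libraries from male mice. All of them were orchidectomised, and treatment with either testosterone or vehicle lasted 4 days. WT mice (C57BL/6J) were set beside ARLmon/Y mice (ARLmon), whose only androgen receptor allele is ARLmon, and each genotype under each treatment had 5 libraries. As background, this allele encodes a receptor whose ligand-binding domain is impaired in dimerisation. The labels name no tissue to which the allele is restricted. The design asks what the allele changes under each treatment, what testosterone changes in each genotype, and whether the response to testosterone differs between genotypes. Whether the 5 libraries of a group stem from 5 different animals is not stated in the labels. The p-values therefore reflect the variation among these samples, some of which may be technical.

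Library totals ran from 8342000 to 38101526 reads assigned to genes, and the 43 genes together took 4119 to 21142 reads per library. Levels are CPM, read counts scaled to a common total by library size and TMM factors. Odc1, an androgen-induced kidney gene, lay between 1330 and 1637 CPM in the WT testosterone libraries and between 165 and 263 CPM in the other 15. It sets WT testosterone apart from the rest and cannot check the labels among those 15. Summed CPM of 6 proximal tubule markers ran from 7014 to 12309, and all 6 had reads in every library. In whole-kidney RNA, fewer cells of a type and less RNA per cell cannot be told apart.

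As background, type I interferons bind the receptor Ifnar and activate the kinases Jak1 and Tyk2, which phosphorylate Stat2. With Irf9 it forms part of the complex ISGF3, which binds the interferon-stimulated response element (ISRE) in the promoters of antiviral genes. Interferon gamma acts through its own receptor and the gamma-activated sequence (GAS) in promoters, and induces Irf1, guanylate-binding proteins and antigen presentation. Kidney tubule, endothelial and resident immune cells can all respond, and many of these genes are transcribed at a low level without infection.

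The promoters of part of the list hold motifs of the pathway. RefSeq promoter windows (GRCm38.p6, 250 bases before to 50 after the start) were found for 31 of them and searched on both strands for the ISRE core, taken as a pair of GAAA repeats with 2 free bases between them, and for the GAS motif TTCNNNGAA. A gene counted if any of its windows held the motif. The ISRE core was present in 18 of the 31 (58.1%), against 3.99% of all 27025 genes with a window. The GAS motif was present in 9 of the 31 (29.0%), against 9.55% of all 27025. A match is a description of these letters and not a measured binding site. The stretches below, upstream of the annotated gene start, were chosen because they belong to genes that the results turn on and show ISRE copies alone (Isg15, Ifit1, Gbp3), both motifs (Igtp) or GAS alone (Irf1). Each is written 5′ to 3′ on the gene's strand and motif matches are in capitals, where the ISRE core on the other strand reads as TTTC repeats. Isg15 lies at chr4:156200819-156200928 on the minus strand and holds 3 overlapping ISRE matches. Ifit1 (chr19:34640769-34640870, plus strand) holds 2 separate ones, Gbp3 (chr3:142559934-142560025, plus strand) holds 2 that overlap, Igtp (chr11:58199456-58199555, plus strand) holds a GAS and an ISRE match, and Irf1 (chr11:53769904-53770013, plus strand) holds a GAS match.
Isg15: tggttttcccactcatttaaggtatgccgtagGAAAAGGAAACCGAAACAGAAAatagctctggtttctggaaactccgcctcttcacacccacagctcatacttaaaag
Ifit1: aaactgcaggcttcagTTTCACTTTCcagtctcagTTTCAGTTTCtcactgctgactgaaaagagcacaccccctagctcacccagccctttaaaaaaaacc
Gbp3: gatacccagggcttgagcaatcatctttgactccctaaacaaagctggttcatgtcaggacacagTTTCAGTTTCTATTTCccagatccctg
Igtp: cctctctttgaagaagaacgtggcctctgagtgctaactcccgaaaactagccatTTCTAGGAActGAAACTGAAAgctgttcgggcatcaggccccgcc
Irf1: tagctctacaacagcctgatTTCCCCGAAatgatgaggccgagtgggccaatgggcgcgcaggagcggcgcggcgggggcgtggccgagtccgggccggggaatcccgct

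Under vehicle, most interferon response genes were higher in ARLmon than in WT kidneys. Of the 43 genes, 31 passed the test and all 31 were higher in ARLmon, against 1.99% of all tested genes that were called higher and 4.37% that were called either way. The median log2 difference was 0.95, against 0.00 over all tested genes. The calls took in all 4 transcription factors, 13 of 22 effectors, 3 of 5 sensors, 8 of 9 GTPases and all 3 antigen processing genes. Ifit1, Gbp3, Isg15, Mx2 and Irf7 had log2 differences of 1.72, 1.60, 1.49, 1.39 and 1.39. In 20 of the 43, all 5 ARLmon vehicle libraries lay above all 5 WT vehicle libraries, against 2.18% of all tested genes. Estimates were above 0 for 42 genes, against 50.8% of all tested genes, and Trim25 was the exception. The list was chosen with earlier results of these data known, so these shares describe it and are not independent support.

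The test was the edgeR quasi-likelihood fit over all 20 libraries and all tested genes, with a call at a Benjamini-Hochberg adjusted p below 0.05. When only the 10 libraries of the compared groups were fitted the count was 18, and it was 20 without the WT vehicle library GC078605.

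**Figure D1:**
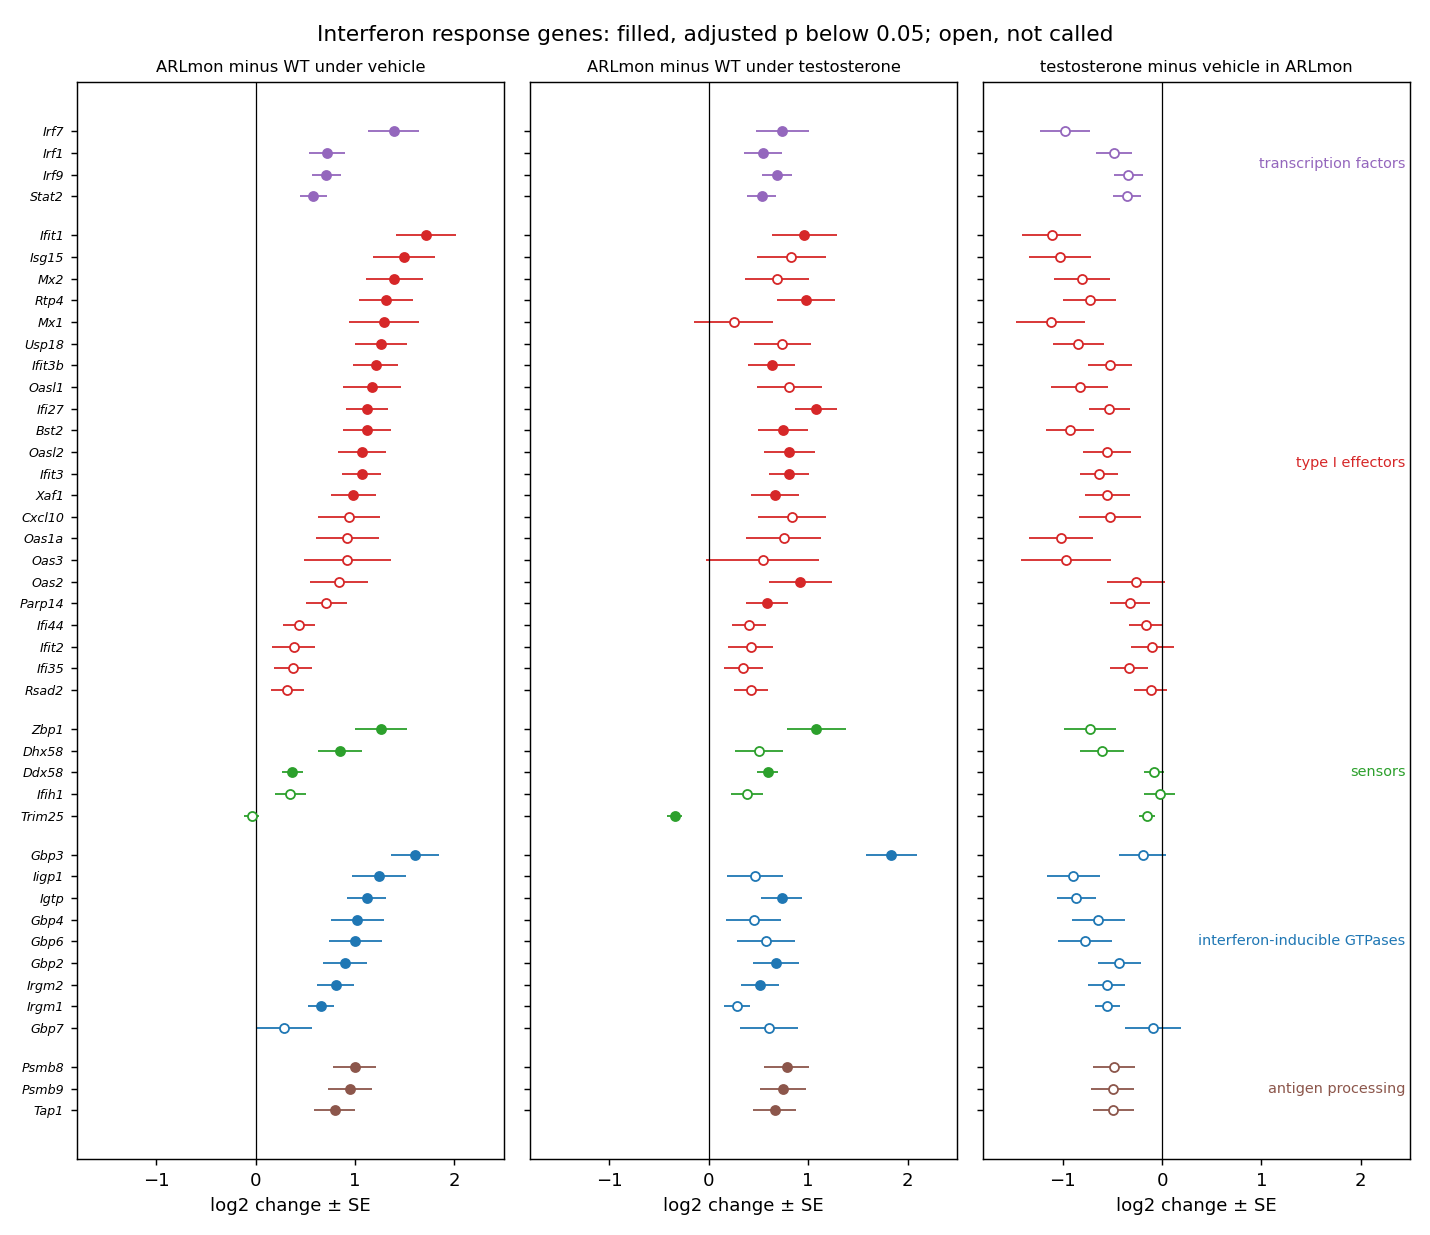
Log2 change ± SE of each of the 43 genes, grouped by class, in ARLmon against WT under vehicle, in ARLmon against WT under testosterone, and with testosterone in ARLmon. Filled points passed the test (31, 24 and 0 genes), and all 43 estimates in the panel on the right lie below 0.

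Values below are CPM in each library, in the order of the library codes (GC078602 to GC078606 for WT vehicle, GC078607 to GC078611 for WT testosterone, GC078617 to GC078621 for ARLmon vehicle and GC078612 to GC078616 for ARLmon testosterone). Differences between genotypes are log2 changes, ARLmon minus WT, with SE where given and the adjusted p, and positions are those of the GENCODE M21 genes on GRCm38.

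The transcription factors carry the interferon signal to the promoters. Irf7, which amplifies type I interferon production (chr7:141262706-141266481), stood in WT at 17.2, 18.3, 22.5, 11.4 and 13.8 under vehicle and at 14.4, 15.7, 16.2, 12.6 and 7.82 under testosterone. In ARLmon, Irf7 stood at 61.4, 66.6, 24.7, 29.6 and 36.3 under vehicle and at 23.5, 26.9, 25.3, 17.7 and 17.6 under testosterone. GC078617 and GC078618 were far above the other ARLmon vehicle libraries, and neither treatment gave any overlap between genotypes. The Irf7 difference was 1.39 ± 0.25 under vehicle (adjusted p = 0.00176), a 2.62-fold difference, and 0.74 ± 0.26 under testosterone (adjusted p = 0.0367). Irf1, the factor induced through GAS (chr11:53770014-53778374), stood in WT at 22.5, 19.7, 22.5, 13.5 and 15.6 under vehicle and at 14.3, 15.5, 17.9, 14.98 and 13.4 under testosterone. The ARLmon values of Irf1 were 31.9, 27.6, 23.7, 42.8 and 28.6 under vehicle and 31.6, 25.1, 20.9, 16.2 and 17.3 under testosterone. Here GC078620 and not GC078618 was highest under vehicle, with no overlap between genotypes under vehicle and some under testosterone. Irf1 differed by 0.72 ± 0.18 under vehicle (adjusted p = 0.0258) and by 0.54 ± 0.19 under testosterone (adjusted p = 0.0347).

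Irf9, the DNA-binding subunit of ISGF3 (chr14:55603571-55610030), stood in WT at 22.7, 18.9, 18.4, 16.8 and 21.9 under vehicle and at 16.04, 17.9, 17.5, 13.9 and 13.9 under testosterone. In ARLmon, Irf9 stood at 45.3, 35.1, 25.8, 27.1 and 28.04 and 27.8, 30.4, 24.99, 24.3 and 19.9 under the same treatments. No library of either genotype overlapped the other under either treatment. Irf9 differed by 0.71 ± 0.15 (adjusted p = 0.00516) under vehicle and 0.69 ± 0.15 (adjusted p = 0.00153) under testosterone. Stat2, the other ISGF3 subunit of this list (chr10:128270559-128292849), stood in WT at 26.8, 23.5, 26.2, 23.7 and 26.2 under vehicle and at 20.2, 22.7, 24.7, 16.8 and 18.4 under testosterone. ARLmon levels of Stat2 were 52.02, 33.4, 29.5, 40.6 and 33.8 under vehicle and 29.4, 33.3, 33.6, 29.2 and 22.5 under testosterone. All ARLmon vehicle libraries exceeded all WT vehicle libraries, and under testosterone GC078616 overlapped with WT. Stat2 differed by 0.58 ± 0.14 (adjusted p = 0.0166) under vehicle and 0.53 ± 0.14 (adjusted p = 0.0075) under testosterone.

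**Figure D2:**
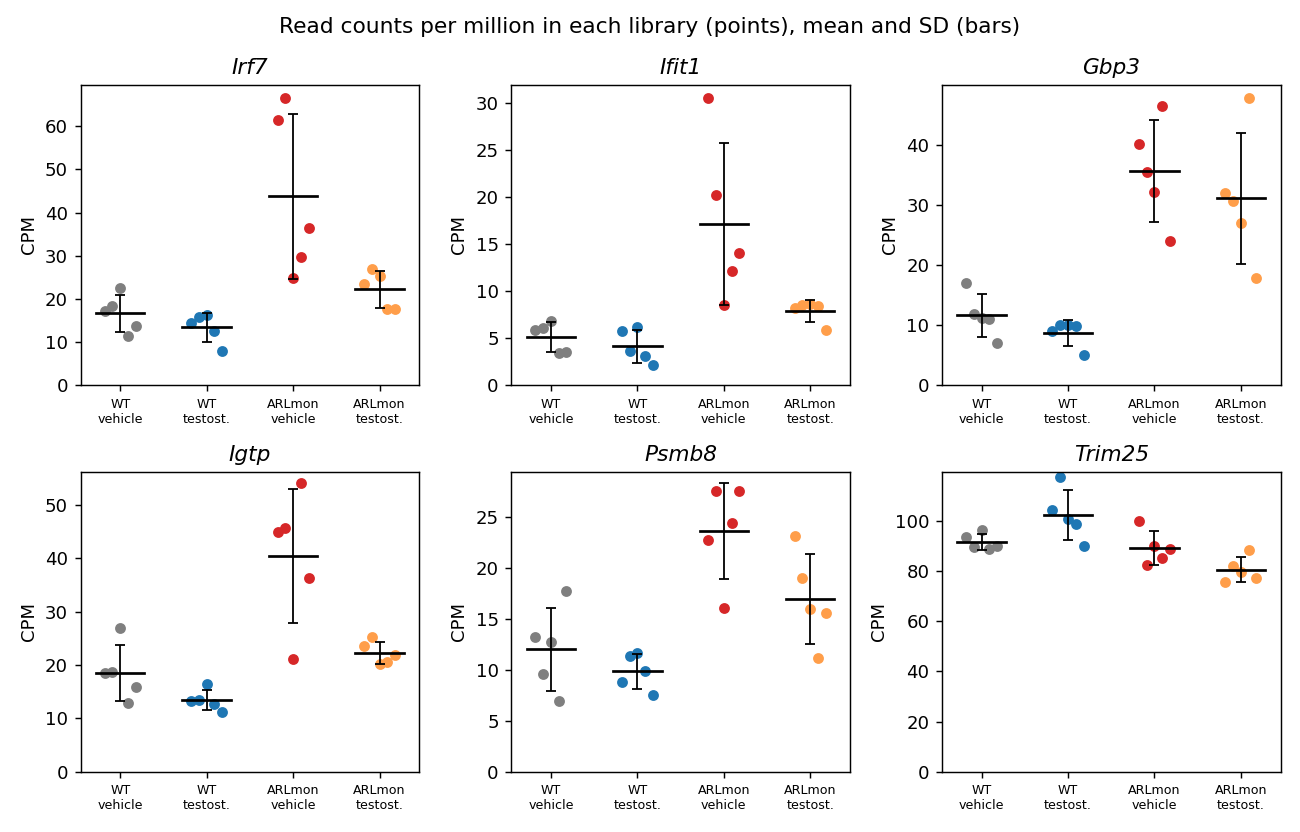
CPM of Irf7, Ifit1, Gbp3, Igtp, Psmb8 and Trim25 in each of the 20 libraries (points), with the mean (line) and SD (bars) of the 5 libraries of each group. The ARLmon vehicle mean is the highest for Irf7, Ifit1 and Igtp, Gbp3 is high in both ARLmon groups, and Trim25 is lowest in ARLmon testosterone.

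Among the effectors, the Ifit genes encode proteins that bind foreign RNA, and the 4 of the list lie together on chromosome 19. Ifit1 (chr19:34640871-34650009) stood in WT at 5.86, 6.06, 6.85, 3.398 and 3.53 under vehicle and at 5.71, 3.63, 6.23, 3.10000 and 2.08 under testosterone. In ARLmon, Ifit1 stood at 30.5, 20.3, 8.53, 12.1 and 14.1 under vehicle and at 8.18, 8.49, 8.604, 8.36 and 5.82 under testosterone. The mean went from 5.14 ± 1.57 (SD, n = 5) in WT vehicle to 17.1 ± 8.63 in ARLmon vehicle, with GC078617 highest and GC078619 nearest to WT. Ifit1 had the largest vehicle difference of the list, 1.72 ± 0.30 (adjusted p = 0.00126), or 3.29-fold, and differed by 0.96 ± 0.33 (adjusted p = 0.0299) under testosterone.

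Ifit3 (chr19:34583531-34588731), a partner of the other Ifit proteins, stood in WT at 16.9, 20.6, 19.6, 16.2 and 14.7 under vehicle and at 15.1, 16.2, 13.4, 13.1 and 10.4 under testosterone. ARLmon levels of Ifit3 were 49.4, 55.3, 22.8, 26.2 and 31.9 under vehicle and 27.8, 24.3, 23.9, 21.5 and 21.9 under testosterone. The genotypes did not overlap under either treatment, with differences of 1.07 (adjusted p = 0.00156) and 0.81 (adjusted p = 0.00396). Ifit3b (chr19:34607970-34613401) stood in WT at 4.73, 6.58, 4.73, 3.82 and 3.53 under vehicle and at 4.08, 6.77, 3.71, 4.72 and 5.05 under testosterone. In ARLmon, Ifit3b stood at 18.1, 12.1, 7.19, 8.32 and 9.02 under vehicle and at 9.25, 7.97, 7.56, 6.28 and 6.86 under testosterone. It was higher in ARLmon by 1.21 (adjusted p = 0.00214) under vehicle, without overlap, and by 0.63 (adjusted p = 0.0471) under testosterone, with overlap. The testosterone call of Ifit3b was not made in 15 of 29 other settings. Ifit3 and Ifit3b share 51.2% and 44.5% of their 50-base stretches with each other, so their reads may have been split or dropped by the counting and the pair is uncertain.

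Isg15 and Usp18 are a matched pair, the ubiquitin-like modifier that interferon induces and the protease that removes it and dampens the receptor. Isg15 (chr4:156199424-156200818) stood in WT at 3.03, 4.12, 5.99, 2.05 and 3.302 under vehicle and at 3.53, 2.18, 3.85, 3.395 and 1.49 under testosterone. In ARLmon, Isg15 stood at 19.1, 12.9, 6.32, 5.51 and 8.63 under vehicle and at 5.25, 5.45, 5.39, 5.42 and 4.05 under testosterone. GC078620, at the low end of ARLmon vehicle, lay under the highest WT vehicle library, while under testosterone the genotypes did not overlap. The Isg15 difference was 1.49 ± 0.31 under vehicle (adjusted p = 0.00623) and 0.83 ± 0.35 under testosterone, where it missed the threshold (adjusted p = 0.0727, 95% interval 0.11 to 1.55). Usp18 (chr6:121245906-121270917) stood in WT at 4.32, 3.92, 4.61, 2.69 and 3.19 under vehicle and at 4.08, 3.39, 3.71, 2.66 and 1.49 under testosterone. ARLmon levels of Usp18 were 15.3, 9.24, 5.51, 7.35 and 7.81 under vehicle and 4.89, 6.15, 5.91, 5.02 and 3.14 under testosterone. Usp18 was higher in ARLmon by 1.26 (adjusted p = 0.00519) under vehicle, without overlap, and its testosterone difference was 0.74 (adjusted p = 0.0536).

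The oligoadenylate synthetase family senses double-stranded RNA and lies on chromosome 5. Oasl1 (chr5:114923240-114937915), a regulator of Irf7, stood in WT at 1.95, 2.56, 3.06, 1.58 and 3.302 under vehicle and at 0.679, 2.54, 2.65, 1.698 and 1.29 under testosterone. In ARLmon, Oasl1 stood at 8.26, 7.53, 3.36, 4.59 and 3.96 under vehicle and at 3.29, 4.28, 2.62, 2.53 and 2.74 under testosterone. It was higher in ARLmon under vehicle by 1.17 (adjusted p = 0.0209), without overlap but with a margin of under 0.1 CPM, and differed by 0.81 (adjusted p = 0.0655) under testosterone. Oasl2 (chr5:114896936-114912234) stood in WT at 12.2, 14.1, 13.5, 7.67 and 10.7 under vehicle and at 10.2, 12.7, 12.99, 7.16 and 5.15 under testosterone. ARLmon levels of Oasl2 were 35.9, 29.2, 16.5, 21.1 and 20.1 under vehicle and 18.4, 19.6, 17.7, 17.2 and 10.6 under testosterone. Oasl2 was higher in ARLmon by 1.07 (adjusted p = 0.0104) under vehicle and by 0.81 (adjusted p = 0.0186) under testosterone, and under testosterone GC078616 lay within the WT range. Oas2 (chr5:120730333-120749853), an enzyme that activates RNase L, stood in WT at 5.04, 5.22, 6.72, 3.58 and 4.098 under vehicle and at 4.21, 5.199, 5.97, 2.51 and 2.08 under testosterone. In ARLmon, Oas2 stood at 14.95, 10.4, 5.58, 5.91 and 7.698 under vehicle and at 7.29, 9.901, 8.83, 6.84 and 4.05 under testosterone. It was called under testosterone (0.92, adjusted p = 0.0323) and not under vehicle (0.84, adjusted p = 0.121), although both estimates were of like size. Oas1a and Oas3 were called in neither comparison. Oas1a shares 57.6% of its 50-base stretches with Oas1g, and Oas3 had a mean of 0.444 ± 0.203 CPM (SD, n = 5) in WT testosterone, its lowest group, and 1.24 ± 0.955 in ARLmon vehicle, its highest.

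Mx1 and Mx2 are dynamin-like antiviral GTPases, and C57BL/6 mice are known to carry a defective Mx1 allele. Mx1 (chr16:97447035-97462907) stood in WT at 1.54, 1.72, 1.83, 0.5005 and 1.37 under vehicle and at 1.09, 2.06, 1.46, 1.33 and 0.594 under testosterone. In ARLmon, Mx1 stood at 5.296, 4.11, 1.88, 3.56 and 2.09 under vehicle and at 1.78, 2.402, 1.197, 1.27 and 1.05 under testosterone. It was higher in ARLmon by 1.29 (adjusted p = 0.0363) under vehicle, while under testosterone the groups covered nearly the same range (0.25, adjusted p = 0.678, 95% interval -0.58 to 1.08). Mx2 (chr16:97535308-97560900) stood in WT at 1.49, 1.31, 1.59, 1.502 and 1.25 under vehicle and at 1.903, 1.57, 1.46, 1.18 and 0.792 under testosterone. ARLmon levels of Mx2 were 7.24, 4.62, 2.22, 2.93 and 2.25 under vehicle and 2.402, 2.81, 2.17, 2.03 and 1.503 under testosterone. Mx2 was higher in ARLmon by 1.39 (adjusted p = 0.00516) under vehicle, where every ARLmon library lay above WT, and differed by 0.69 (adjusted p = 0.114) under testosterone.

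Bst2 (tetherin) holds budding virions at the cell surface. Bst2 (chr8:71534255-71537456) stood in WT at 14.3, 15.1, 20.5, 9.48 and 17.3 under vehicle and at 8.29, 14.8, 12.5, 8.19 and 8.81 under testosterone. In ARLmon, Bst2 stood at 33.6, 48.2, 21.8, 23.4 and 39.5 under vehicle and at 20.3, 21.9, 20.2, 10.9 and 14.4 under testosterone. The ARLmon vehicle libraries were all above WT vehicle, with a difference of 1.12 (adjusted p = 0.00727), and the testosterone groups overlapped, with a difference of 0.74 (adjusted p = 0.0305). Ifi27 (chr12:103434211-103440239), a small membrane protein, had the highest level per length of the list, 46.2 CPM per kb of exon averaged over the 4 groups. It stood in WT at 44.7, 40.8, 57.1, 37.8 and 70.9 under vehicle and at 35.7, 47.999, 34.7, 31.3 and 29.5 under testosterone. In ARLmon, Ifi27 stood at 123, 173, 76.9, 73.3 and 100.4 under vehicle and at 83.3, 79.03, 80.4, 58.2 and 77.5 under testosterone. GC078618 was the highest library and the genotypes did not overlap under either treatment, with differences of 1.12 (adjusted p = 0.00222) and 1.08 (adjusted p = 0.0006).

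Rtp4, Xaf1 and Parp14 are effectors of other kinds. Rtp4 (chr16:23520291-23614222), a receptor transporter protein, stood in WT at 4.83, 5.90000, 5.71, 3.37 and 3.19 under vehicle and at 2.58, 5.803, 4.64, 2.44 and 2.48 under testosterone. In ARLmon, Rtp4 stood at 18.9, 13.9, 6.65, 8.84 and 9.51 under vehicle and at 7.47, 7.97, 6.73, 7.35 and 5.23 under testosterone. Rtp4 was higher in ARLmon by 1.31 (adjusted p = 0.00516) under vehicle, without overlap, and by 0.98 (adjusted p = 0.0151) under testosterone. Xaf1 (chr11:72301629-72313733), a pro-apoptotic factor, stood in WT at 7.41, 7.05, 4.93, 4.24 and 4.67 under vehicle and at 5.16, 4.23, 5.57, 6.13 and 2.97 under testosterone. ARLmon levels of Xaf1 were 15.2, 14.4, 7.06, 7.63 and 11.99 under vehicle and 8.45, 8.67, 6.96, 8.36 and 5.82 under testosterone. Xaf1 was higher in ARLmon by 0.98 (adjusted p = 0.0127) and 0.67 (adjusted p = 0.0402), with overlap in both comparisons. Parp14 (chr16:35832874-35871544), an ADP-ribosyltransferase, stood in WT at 29.1, 20.8, 15.98, 15.5 and 17.9 under vehicle and at 20.8, 21.04, 18.03, 15.4 and 11.98 under testosterone. In ARLmon, Parp14 stood at 48.7, 25.8, 25.2, 33.7 and 29.1 under vehicle and at 23.1, 30.99, 27.01, 30.5 and 18.4 under testosterone. Parp14 was called under testosterone (0.58, adjusted p = 0.0394) and just missed the threshold under vehicle (0.71, adjusted p = 0.0504). The effectors called in neither comparison were Ifit2, Oas1a, Oas3, Rsad2, Cxcl10, Ifi35 and Ifi44, with log2 differences of 0.32 (Rsad2) to 0.94 (Cxcl10) under vehicle. Their adjusted p ran from 0.1 (Cxcl10) to 0.372 (Ifit2).

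The sensors behaved unevenly. Zbp1 (chr2:173206612-173218923), which binds Z-form nucleic acid and can trigger necroptosis, stood in WT at 2.93, 3.13, 2.98, 1.42 and 2.62 under vehicle and at 2.99, 1.81, 1.59, 1.11 and 1.58 under testosterone. In ARLmon, Zbp1 stood at 8.64, 7.101, 3.56, 6.08 and 5.72 under vehicle and at 4.18, 4.16, 4.94, 2.58 and 3.01 under testosterone. It had the largest differences of the class, 1.26 (adjusted p = 0.00538) under vehicle and 1.08 (adjusted p = 0.0082) under testosterone. Dhx58 (chr11:100694884-100704271), a helicase that modulates RNA sensing, stood in WT at 2.88, 3.34, 3.67, 2.69 and 2.73 under vehicle and at 4.35, 2.297, 2.78, 1.92 and 1.78 under testosterone. ARLmon levels of Dhx58 were 7.63, 7.27, 3.63, 5.17 and 4.23 under vehicle and 4.003, 3.69, 3.67, 3.903 and 3.01 under testosterone. Dhx58 was higher in ARLmon by 0.85 (adjusted p = 0.0274) under vehicle, with GC078619 just inside the WT range, and differed by 0.51 (adjusted p = 0.116) under testosterone.

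Ddx58 (chr4:40203773-40239828), the RNA sensor also called RIG-I, stood in WT at 36.3, 35.03, 28.5, 33.7 and 29.4 under vehicle and at 24.9, 27.1, 29.96, 23.8 and 26.5 under testosterone. In ARLmon, Ddx58 stood at 52.2, 43.5, 38.4, 41.8 and 34.97 under vehicle and at 39.8, 44.1, 42.5, 37.7 and 35.2 under testosterone. The testosterone groups did not overlap and differed by 0.59 ± 0.11 (adjusted p = 0.000243). The vehicle difference of 0.37 ± 0.10 was close to the threshold (adjusted p = 0.0475), and 21 of 29 other settings did not call it. Trim25 (chr11:88999376-89020293), a ubiquitin ligase that acts with Ddx58, stood in WT at 93.6, 89.5, 96.3, 88.5 and 90.1 under vehicle and at 104, 117, 101, 98.5 and 90.02 under testosterone. ARLmon levels of Trim25 were 99.9, 82.2, 90.05, 85.2 and 88.6 under vehicle and 75.5, 81.8, 79.4, 88.2 and 77.1 under testosterone. Trim25 was the member that went the other way, with no difference detected under vehicle (-0.04, adjusted p = 0.845) and a lower level in ARLmon under testosterone (-0.34, adjusted p = 0.00192), where all 5 ARLmon libraries lay below all 5 WT libraries. The Trim25 call was lost in 2 of 29 other settings, with library size as the only scaling and with limma on the log2 values deposited by the authors. Its estimates over the 29 settings ran from -0.39 to -0.10 and did not change sign. Ifih1, the RNA sensor also called MDA5, was called in neither comparison (0.35, adjusted p = 0.242, under vehicle and 0.38, adjusted p = 0.0774, under testosterone).

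The interferon-inducible GTPases attack the membranes around intracellular microbes. Gbp3 (chr3:142560026-142573209) stood in WT at 16.97, 11.7, 11.2, 10.99 and 7.06 under vehicle and at 8.97, 10.04, 9.94, 9.74 and 4.95 under testosterone. In ARLmon, Gbp3 stood at 40.1, 35.4, 32.1, 46.4 and 23.9 under vehicle and at 32.02, 30.7, 26.9, 47.8 and 17.8 under testosterone. Every ARLmon library lay above every WT library, whatever the treatment, and GC078620 and GC078615 were the highest of their groups. Gbp3 differed by 1.60 ± 0.24 under vehicle (adjusted p = 0.00026) and by 1.84 ± 0.26 under testosterone (adjusted p = 1.21e-05), or 3.04-fold and 3.57-fold. Gbp2 (chr3:142620602-142638008) stood in WT at 12.7, 11.3, 12.8, 7.11 and 10.6 under vehicle and at 6.39, 11.97, 12.6, 8.71 and 7.53 under testosterone. ARLmon levels of Gbp2 were 22.6, 16.5, 14.2, 27.03 and 20.8 under vehicle and 22.8, 15.8, 13.5, 10.8 and 12.7 under testosterone. Gbp2 was higher in ARLmon by 0.90 (adjusted p = 0.0192) and 0.68 (adjusted p = 0.0289), without overlap under vehicle and with overlap under testosterone.

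Gbp4 and Gbp6 lie in the second cluster of the family, on chromosome 5. Gbp4 (chr5:105115767-105139586) stood in WT at 11.4, 10.02, 5.66, 4.69 and 5.35 under vehicle and at 8.15, 6.65, 10.2, 6.13 and 4.75 under testosterone. In ARLmon, Gbp4 stood at 20.1, 8.47, 11.02, 21.4 and 14.6 under vehicle and at 8.27, 10.8, 11.6, 9.93 and 7.91 under testosterone. Gbp4 was higher in ARLmon under vehicle by 1.03 (adjusted p = 0.0291), with GC078618 and GC078619 inside the WT range, and differed by 0.45 (adjusted p = 0.237) under testosterone. Gbp6 (chr5:105270702-105293698) stood in WT at 5.35, 5.59, 5.91, 2.37 and 3.53 under vehicle and at 3.13, 3.75, 4.24, 4.06 and 2.67 under testosterone. ARLmon levels of Gbp6 were 14.02, 5.65, 5.38, 11.9 and 8.69 under vehicle and 3.82, 6.97, 6.13, 4.31 and 5.36 under testosterone. Gbp6 was higher in ARLmon under vehicle by 1.00 (adjusted p = 0.0356) and differed by 0.58 (adjusted p = 0.144) under testosterone. Gbp6 shares 51.5% of its 50-base stretches with Gm43302, and Gbp4 overlaps Gbp8 and Gbp9 on the same strand, so both counts are uncertain. Gbp7 was called in neither comparison (0.28, adjusted p = 0.652, under vehicle and 0.61, adjusted p = 0.123, under testosterone).

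The immunity-related GTPases Igtp, Irgm1 and Irgm2 regulate the effector Iigp1. Igtp (chr11:58199556-58207591) stood in WT at 18.5, 18.8, 26.98, 12.9 and 15.8 under vehicle and at 13.2, 13.5, 16.4, 12.7 and 11.3 under testosterone. In ARLmon, Igtp stood at 45.01, 45.8, 21.1, 54.1 and 36.3 under vehicle and at 23.6, 25.3, 20.1, 20.6 and 21.8 under testosterone. GC078619 alone of the ARLmon vehicle libraries fell within the WT vehicle range, and the testosterone groups did not overlap. Igtp differed by 1.12 ± 0.20 under vehicle (adjusted p = 0.00133) and by 0.73 ± 0.21 under testosterone (adjusted p = 0.0101). Irgm2 (chr11:58199618-58222782) stood in WT at 27.5, 19.01, 20.5, 17.4 and 17.4 under vehicle and at 16.9, 16.3, 23.2, 15.6 and 13.3 under testosterone. ARLmon levels of Irgm2 were 49.8, 29.2, 22.2, 44.7 and 32.4 under vehicle and 21.3, 26.1, 23.6, 28.03 and 21.9 under testosterone. Irgm2 was higher in ARLmon by 0.81 (adjusted p = 0.0127) and 0.51 (adjusted p = 0.0481), with overlap in both. Its testosterone call was close to the threshold, and 16 of 29 other settings did not make it. Irgm2 shares 7974 bases of its position with Igtp on the same strand.

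Irgm1 (chr11:48861968-48871683) was the most abundant GTPase by CPM and stood in WT at 55.2, 57.3, 56.3, 47.2 and 46.9 under vehicle and at 46.7, 45.8, 51.4, 43.4 and 45.95 under testosterone. In ARLmon, Irgm1 stood at 115, 87.9, 55.98, 84.4 and 72.9 under vehicle and at 53.6, 60.3, 51.2, 60.7 and 57.9 under testosterone. GC078619 was again within the WT vehicle range. Irgm1 was higher in ARLmon by 0.66 (adjusted p = 0.00355) under vehicle and differed by 0.28 (adjusted p = 0.107) under testosterone. Iigp1 stood in WT at 16.4, 14.7, 11.2, 6.98 and 8.08 under vehicle and at 10.9, 12.9, 13.1, 11.4 and 5.25 under testosterone. ARLmon levels of Iigp1 were 36.8, 17.5, 17.7, 37.4 and 26.8 under vehicle and 12.8, 20.2, 13.8, 15.4 and 11.04 under testosterone. GC078617 and GC078620 stood apart with about the same level, and Iigp1 was higher in ARLmon by 1.24 (adjusted p = 0.0078) under vehicle without overlap, while the testosterone groups overlapped (0.46, adjusted p = 0.224).

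The antigen processing genes make and carry peptides for class I molecules and lie side by side in the major histocompatibility complex on chromosome 17. Psmb8 (chr17:34197721-34201454), a catalytic subunit of the immunoproteasome, stood in WT at 13.2, 9.61, 12.7, 6.95 and 17.8 under vehicle and at 8.83, 11.4, 11.7, 9.89 and 7.53 under testosterone. In ARLmon, Psmb8 stood at 22.7, 27.5, 16.1, 24.4 and 27.5 under vehicle and at 23.1, 18.98, 16.01, 11.2 and 15.6 under testosterone. GC078606 of WT vehicle overlapped with the lowest ARLmon vehicle library. Psmb8 differed by 1.00 ± 0.22 under vehicle (adjusted p = 0.0078) and by 0.78 ± 0.23 under testosterone (adjusted p = 0.0116). Psmb9 (chr17:34181987-34187764), its partner subunit, stood in WT at 7.201, 6.58, 9.66, 3.87 and 7.17 under vehicle and at 6.12, 5.92, 7.16, 5.76 and 3.27 under testosterone. ARLmon levels of Psmb9 were 11.4, 12.4, 9.95, 15.96 and 16.3 under vehicle and 11.7, 9.901, 10.2, 6.74 and 8.63 under testosterone. Psmb9 was higher in ARLmon by 0.95 (adjusted p = 0.0124), without overlap under vehicle, and by 0.74 (adjusted p = 0.0185) under testosterone. Tap1 (chr17:34187553-34197225), a subunit of the peptide transporter, stood in WT at 15.3, 15.04, 19.1, 12.4 and 15.1 under vehicle and at 10.9, 12.7, 16.6, 11.7 and 8.52 under testosterone. In ARLmon, Tap1 stood at 29.1, 28.5, 16.9, 31.6 and 27.7 under vehicle and at 29.4, 21.1, 18.03, 12.7 and 14.4 under testosterone. Tap1 was higher in ARLmon by 0.80 (adjusted p = 0.0276) and 0.66 (adjusted p = 0.0237), and GC078619 and GC078615 were the low libraries of the ARLmon groups.

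Under testosterone the genotypes differed in the same direction, with estimates above 0 for 42 of the 43 genes, against 54.1% of all tested genes. Of the 43 genes, 23 were higher in ARLmon and 1, Trim25, was lower, against 15.6% and 15.5% of all tested genes called higher and lower (31.1% either way). The median log2 difference was 0.67, against 0.04 over all tested genes. All 4 transcription factors and all 3 antigen processing genes were called, with 10 of 22 effectors, 4 of 9 GTPases and 2 sensors. Gbp3 (1.84), Zbp1 (1.08) and Ifi27 (1.08) had the largest differences. In 8 genes all ARLmon libraries lay above all WT libraries, against 9.44% of all tested genes, and in Trim25 all lay below, against 13.1%.

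The genotype comparisons under vehicle and under testosterone share no library, although they share the estimate of spread. Called higher in both were 21 genes, which is 21 of the 31 under vehicle and 21 of the 23 under testosterone. Over all tested genes 254 were higher in both, of 310 and 2431. Isg15, Usp18, Oasl1, Mx1, Mx2, Dhx58, Gbp4, Gbp6, Irgm1 and Iigp1 passed only under vehicle, Oas2 and Parp14 only under testosterone, and 9 genes in neither. These are differences in what passed, and the test of the difference itself is given with the response to testosterone. Scaled by library size alone, the median of all tested genes in the testosterone comparison moved from 0.04 to 0.28, and 38 of the 43 genes were called. Without the WT testosterone library GC078611 the count was 11, and without GC078610 or GC078613 it was 13.

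**Figure D3:**
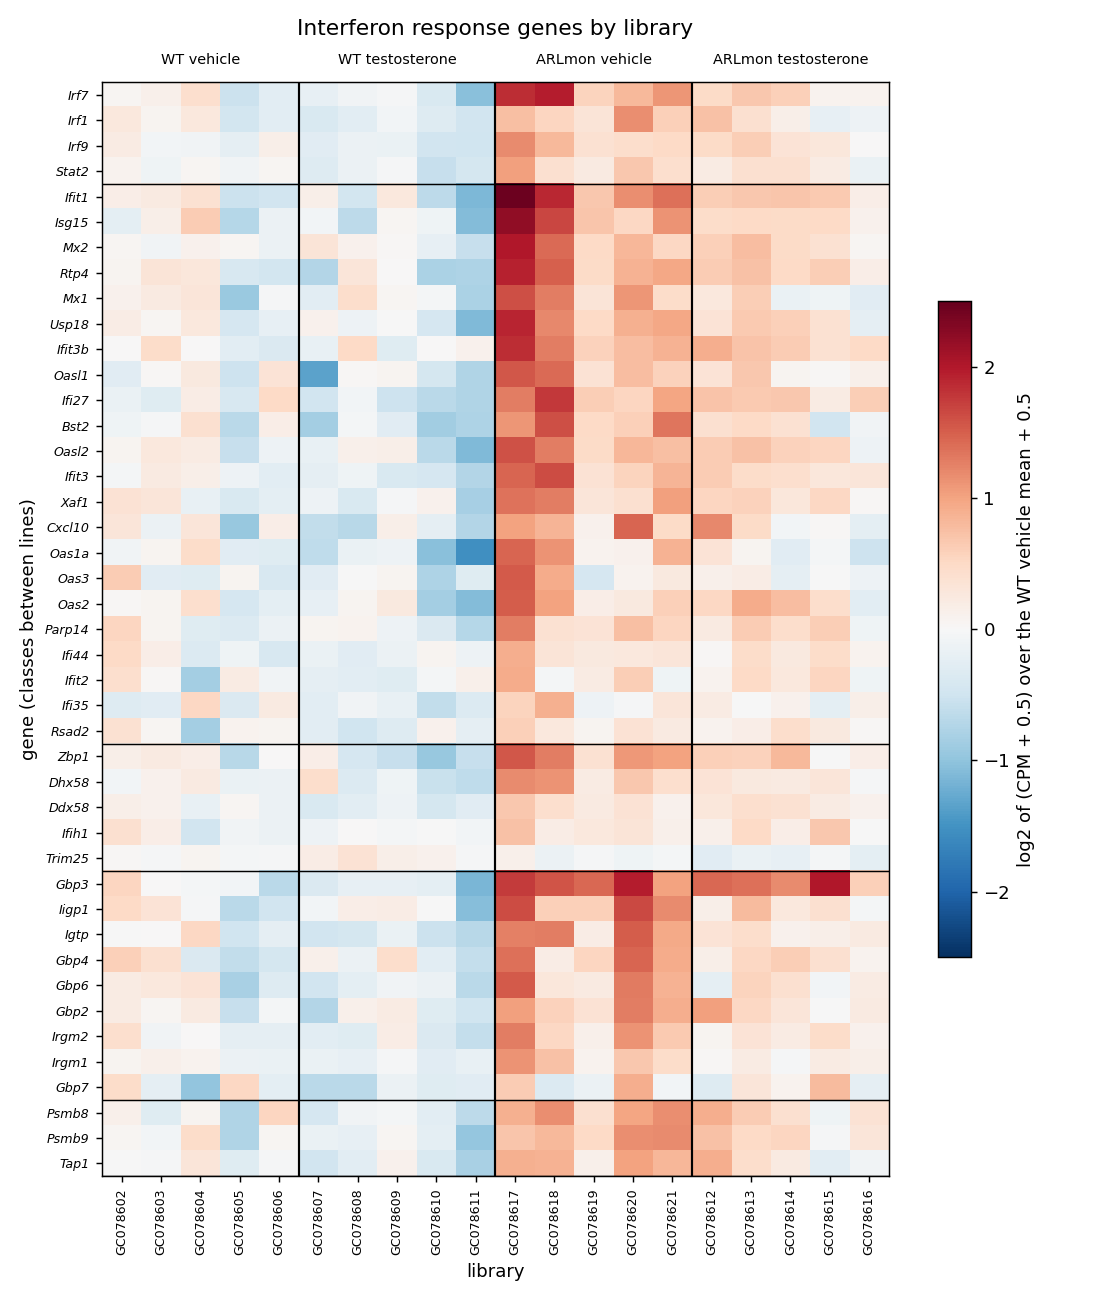
Level of each of the 43 genes (rows, grouped by class) in each of the 20 libraries (columns, grouped), as log2 of CPM + 0.5 over the WT vehicle mean + 0.5. The columns of GC078617 and GC078618 are red through the effectors, GC078620 through the GTPases, and GC078611 is blue.

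Testosterone changed none of the 43 genes in ARLmon at the adjusted threshold, where no gene at all passed (0% of 15549). All 43 estimates were nonetheless below 0, against 48.8% of all tested genes, with a median of -0.55 against 0.01. At an unadjusted p below 0.05 there were 30 of the 43 by edgeR, all lower, against 5.23% of all tested genes (3.25% lower). DESeq2, run without the filter on low counts, gave 31 against 3.79% of 24744 genes, and limma-voom gave 30 against 5.20% of the 15549. The smallest unadjusted p of the list belonged to Igtp, whose mean went from 40.5 ± 12.5 CPM (SD, n = 5) under vehicle to 22.3 ± 2.14 under testosterone. Its log2 change was -0.86 ± 0.20 (unadjusted p = 0.000275 and adjusted p = 0.774 by edgeR). The estimates were -0.55 ± 0.13 for Irgm1, -0.98 ± 0.25 for Irf7, -0.93 ± 0.24 for Bst2 and -1.11 ± 0.30 for Ifit1, each with the same adjusted p of 0.774. In Isg15 the 5 testosterone libraries lay below the 5 vehicle libraries, which was so for 0.386% of all tested genes. Ifih1 (-0.02), Ddx58 (-0.08), Gbp7 (-0.09) and Ifit2 (-0.10) had the estimates nearest to 0, and that of Gbp3 was -0.19 (95% interval -0.68 to 0.29). The ARLmon vehicle libraries are also those of the genotype comparison under vehicle, so the values of both comparisons move together with them.

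In WT, testosterone likewise changed none of the 43 at the adjusted threshold, while 15.7% of all tested genes were called. Estimates were below 0 for 41 of the 43, against 54.4% of all tested genes, with a median of -0.30 against -0.03. At an unadjusted p below 0.05 there were 7, all lower, against 28.8% of all tested genes (14.2% lower). DESeq2 gave 7 against 19.2% of the 24744 unfiltered genes, and limma-voom gave 4 against 27.4% of the filtered ones. The smallest adjusted p was that of Ddx58, at 0.0578 with a log2 change of -0.30 ± 0.11. Oas1a (-0.84), Oas3 (-0.59), Zbp1 (-0.55), Bst2 (-0.55) and Ifi27 (-0.48) had the lowest estimates. Library size as the only scaling called 5 genes, all lower, with the median of all tested genes at -0.18. Without the WT vehicle library GC078604 the count was 2, and it was 1 without GC078609, GC078617 or GC078621.

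Whether the response to testosterone depended on genotype was tested by an interaction term, which called none of the 43 genes, against 4.77% of all tested genes. Estimates were below 0 for 36 of the 43, against 47.1% of all tested genes, with a median of -0.26 against 0.02 over all tested genes. At an unadjusted p below 0.05 there was 1 by edgeR (16.6% of all tested genes) and 1 by limma-voom (16.0%). DESeq2 gave 2, against 11.2% of the 24744 unfiltered genes. The gene by edgeR was Trim25, with a difference of -0.31 ± 0.11 (adjusted p = 0.13). For Mx1 the difference was -1.04 (95% interval -2.15 to 0.07), for Iigp1 -0.78 (95% interval -1.58 to 0.02) and for Irf7 -0.65 (95% interval -1.40 to 0.11). A different response to testosterone in the genotypes was therefore not detectable for these genes with 5 libraries per group. The intervals of Mx1, Iigp1 and Irf7 still hold differences as large as their genotype difference under vehicle.

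In ARLmon kidneys with testosterone against WT kidneys with vehicle, Gbp3 was the only gene of the 43 that passed, against 1.25% of all tested genes called higher and 3.03% either way. Gbp3 was 31.0 ± 10.9 CPM (SD, n = 5) in ARLmon testosterone and 11.6 ± 3.54 in WT vehicle, a log2 difference of 1.41 ± 0.24 (adjusted p = 0.00114) without overlap. The call on Gbp3 held in all 29 other settings. Estimates were above 0 for 40 of the 43, against 51.8% of all tested genes, with a median of 0.35 against 0.01. By edgeR 12 had an unadjusted p below 0.05, against 15.1%. Ifit3b (0.68), Ifit1 (0.61) and Ifi27 (0.60) stood next in size, with adjusted p values of 0.12, 0.353 and 0.15.

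Set in order, the group means ran the same way in 39 of the 43 genes, with ARLmon vehicle highest, then ARLmon testosterone, WT vehicle and WT testosterone. ARLmon vehicle was highest in 42 of the 43 and in 28.7% of all tested genes, and WT testosterone was lowest in 41 and in 42.3%. Both ARLmon means exceeded both WT means in 40 genes, against 29.8% of all tested genes. The exceptions to the order were Ifit3b, Oas1a, Oas3 and Trim25. Neighbours in the order were for most genes not separated at the adjusted threshold. None of the 43 separated the treatments within a genotype there, and Gbp3 alone separated ARLmon testosterone from WT vehicle. Within ARLmon none of the 15549 tested genes passed that threshold, so the lack of calls does not show that the treatments were alike. At an unadjusted p below 0.05 by edgeR, 30 of the 43 were lower with testosterone in ARLmon, against 3.25% of all tested genes. Per length of exon, Ifi27 (46.2 CPM per kb over the 4 groups), Bst2 (21.2) and Trim25 (15.8) were the most abundant, followed by Ifit3 (13.2) and Igtp (11.7). Oas3 (0.103) was the lowest.

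The libraries of a group differed from each other, and the classes did not follow the same libraries. Against the WT vehicle mean, the median effector in the ARLmon vehicle libraries GC078617 to GC078621 stood at 1.48, 1.28, 0.35, 0.60 and 0.68 in log2 units. The median GTPase stood at 1.27, 0.58, 0.22, 1.30 and 0.90 in the same libraries. Ifit1 and Isg15 were highest in GC078617 and GC078618, whereas the median GTPase was highest in GC078617 and GC078620, and Irf1 and Cxcl10 were highest in GC078620. GC078617 was the highest of its group for 27 of the 43 genes and GC078619 the lowest for 33. In ARLmon testosterone, GC078613 was highest for 19 and GC078616 lowest for 23. In WT, GC078605 was lowest of the vehicle libraries for 28 and GC078611 lowest of the testosterone libraries for 27. Without GC078617 the vehicle comparison of genotypes called 22 genes.

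Of the pathway upstream of these genes, the ligands were at the limit of detection. Over all 20 libraries Ifnb1 had 3 reads, Ifna2 had 2 and Ifng had 13, and none was tested. Other interferon genes were not analysed here. Among the receptors and kinases, the receptor chain Ifnar2 (0.47 ± 0.11, adjusted p = 0.0143) and Il10rb (0.36 ± 0.09, adjusted p = 0.0161), a chain of the interferon lambda and interleukin-10 receptors, were higher in ARLmon under vehicle. Under testosterone Il10rb (0.59 ± 0.09, adjusted p = 2.43e-05) and Ifnar2 (0.44 ± 0.11, adjusted p = 0.00495) were again higher. The interferon lambda receptor chain Ifnlr1 (-0.65) and the kinase Jak1 (-0.35) were lower there. With testosterone none of them was called in ARLmon, where no gene passed, and Il10rb was lower in WT (-0.27 ± 0.09, adjusted p = 0.0427).

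Other genes of the pathway induce interferon or restrain the response. Of 15 tested genes of interferon induction, 0 were called under vehicle, against 4.37% of all tested genes. Under testosterone 3 were higher in ARLmon and 1 lower, against 15.6% and 15.5% of all tested genes. The immune cell factor Irf8 was higher by 0.96 ± 0.18 (adjusted p = 0.000437), and Irf5 was lower by a log2 difference of -0.70 ± 0.17 (adjusted p = 0.00313). In WT, testosterone raised Irf5 (0.95 ± 0.17, adjusted p = 0.000407) and lowered Irf8 (-0.96 ± 0.18, adjusted p = 0.000758), and the response of Irf5 differed between genotypes (-0.99 ± 0.24, adjusted p = 0.0154). Of 11 negative regulators, 1 was called under vehicle, against 4.37% of all tested genes. It was Samhd1, which depletes nucleotides (0.39 ± 0.10, adjusted p = 0.031). Under testosterone Samhd1 (0.43 ± 0.10, adjusted p = 0.00341) and the RNA editor Adar (0.34 ± 0.12, adjusted p = 0.0332) were higher and Rnaseh2b (-0.60 ± 0.15, adjusted p = 0.00375) was lower. These are 2 and 1 of the 11, against 15.6% and 15.5% of all tested genes, and are not read as a result about the regulators.

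Further interferon-stimulated genes outside the 43 showed a mixed picture. Of 44 tested, 12 were higher in ARLmon and 1 lower under vehicle, against 1.99% of all tested genes called higher. Under testosterone 15 were higher and 5 lower, against 15.6% and 15.5%. The medians were 0.49 and 0.47. Lgals3bp, a secreted glycoprotein, was higher by 1.05 ± 0.19 under vehicle (adjusted p = 0.00133). Lap3, an aminopeptidase, was lower in ARLmon by a log2 difference of -0.79 ± 0.12 under vehicle (adjusted p = 0.000378) and -1.85 ± 0.13 under testosterone (adjusted p = 3.27e-10). In WT testosterone raised Lap3 by 1.16 ± 0.12 (adjusted p = 6.37e-07) and Ly6e by 1.04 ± 0.21 (adjusted p = 0.00108), and 4 of the 44 were higher and 4 lower there, against 15.7% of all tested genes called either way. The response differed between genotypes for Lap3 (-1.06), Parp10 (-0.78) and Ly6e (-1.21), in each case lower in ARLmon, and for no other of the 44. Over all tested genes 4.77% were called by the interaction term, so these 3 calls are not read as a result about the list.

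Class I presentation genes beside the 3 of the list included 3 of 13 that were higher in ARLmon under vehicle, against 1.99% of all tested genes. They were B2m, the light chain of class I (0.55 ± 0.14, adjusted p = 0.023), the transactivator Nlrc5 (1.02 ± 0.27, adjusted p = 0.0291) and the peptide loader Tapbp (0.41 ± 0.11, adjusted p = 0.0338). Under testosterone 6 were higher and 3 lower, against 15.6% and 15.5% of all tested genes, led by B2m (0.82 ± 0.14, adjusted p = 0.000104), and the lower genes were the folding proteins Pdia3 (-0.39), Canx (-0.36) and Calr (-0.35). Of 7 class II genes, 1 was called higher under vehicle, against 1.99% of all tested genes, namely H2-Ab1 (0.84 ± 0.23, adjusted p = 0.0335). Under testosterone 6 were called higher, against 15.6%, with H2-DMb1 at 0.87 ± 0.19 (adjusted p = 0.00144). All 7 estimates were above 0 under each treatment, with medians of 0.71 under vehicle and 0.92 under testosterone. The interaction term called none of the 7, against 4.77% of all tested genes.

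**Figure D4:**
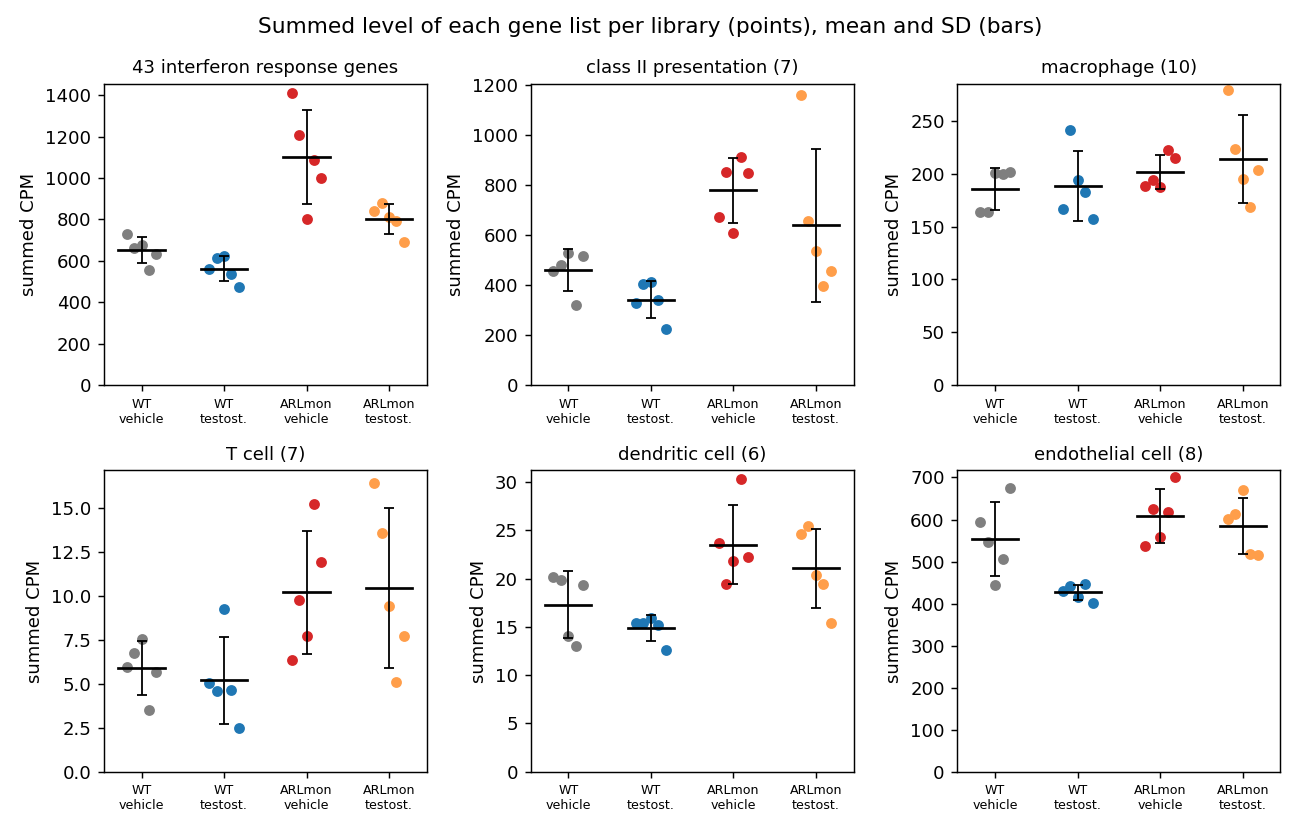
Summed CPM of the 43 genes and of the lists for class II presentation, macrophages, T cells, dendritic cells and endothelial cells in each library (points), with the mean and SD of each group. The 43 genes run from 476 in WT testosterone to 1410 in ARLmon vehicle, and several marker lists are also higher in the ARLmon groups.

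Summed levels of marker lists for immune and other cells are set beside those of the 43 genes. The summed level of the 43 genes was 557 to 730 CPM in WT vehicle, 476 to 622 in WT testosterone, 804 to 1410 in ARLmon vehicle and 690 to 881 in ARLmon testosterone. Class II genes summed to 319 to 527, 226 to 411, 607 to 913 and 395 to 1159 in the same order. They mark antigen-presenting cells but also belong to antigen presentation, which interferon gamma induces, so these sums cannot tell cell number from response. The 6 dendritic cell markers summed to 13.0 to 20.2, 12.6 to 15.9, 19.4 to 30.3 and 15.4 to 25.4 CPM. The 7 T cell markers summed to 3.53 to 7.58, 2.48 to 9.28, 6.39 to 15.3 and 5.12 to 16.5 CPM. The 10 macrophage markers overlapped between all groups, at 163 to 201, 157 to 242, 188 to 223 and 169 to 279 CPM. The 8 endothelial markers were lowest in WT testosterone, at 402 to 447 CPM, against 444 to 675, 537 to 702 and 516 to 671 in WT vehicle, ARLmon vehicle and ARLmon testosterone. The 5 adipocyte markers summed to 75.9 to 295 CPM in WT vehicle, 85.3 to 221 in WT testosterone, 119 to 493 in ARLmon vehicle and 184 to 317 in ARLmon testosterone. The 5 neutrophil markers summed to 3.50 to 37.9, 3.31 to 17.4, 2.58 to 14.3 and 3.22 to 6.67 CPM in the same order, and Ly6g had no read in ARLmon testosterone. Every other marker had reads in all 4 groups.

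By the test, 3 of these markers were called under vehicle, against 4.37% of all tested genes called either way. They were 1 of 4 B cell, 1 of 5 dendritic cell and 1 of 6 proximal tubule markers tested, and the other lists had no call. So few calls over all the lists are not read as a result about the markers. Ms4a1 of the B cell list was higher in ARLmon (1.54 ± 0.39, adjusted p = 0.0251), as was Xcr1 of the dendritic cell list (1.15 ± 0.33, adjusted p = 0.0471). The water channel Aqp1 of the proximal tubule was lower, with a log2 difference of -0.61 ± 0.12 (adjusted p = 0.00334). None of the 10 macrophage, 7 T cell, 2 NK cell or 8 endothelial markers tested was called under vehicle, where 4.37% of all tested genes were. All 5 adipocyte markers had estimates above 0 under vehicle and none was called, with a median of 0.98 and 1.2 ± 0.35 for Adipoq (adjusted p = 0.0539). All 7 T cell markers also had estimates above 0, with a median of 0.85. So had all 5 dendritic cell, 4 B cell and 2 NK cell markers tested, with medians of 0.53, 0.48 and 0.51. Estimates were above 0 for 7 of 8 endothelial, 8 of 10 macrophage and 1 of 6 proximal tubule markers, against 50.8% of all tested genes. The 3 neutrophil markers tested had estimates below 0, among them S100a9 (-1.55 ± 0.69, adjusted p = 0.236). Under testosterone 6 of 8 endothelial markers were higher in ARLmon, against 15.6% of all tested genes, led by Eng (0.51 ± 0.11, adjusted p = 0.00121), and of the macrophage markers Adgre1 (1.14 ± 0.21, adjusted p = 0.000309), Cd68 and C1qb were higher and Csf1r was lower. Of 7 T cell markers 1 was called higher (Cd8a, log2 difference 1.15), and of 2 NK cell markers 1 (Nkg7, 1.37). Of 5 dendritic cell markers 1 was called higher (Xcr1, 1.60), and of 5 adipocyte markers 1 (Adipoq, 1.01). In the same lists Cd3e (-0.04) and the adipocyte gene Lep (-0.49) had estimates below 0. None of 4 B cell, 3 neutrophil or 6 proximal tubule markers tested was called. The part of these cell types in the levels of the 43 genes was not tested.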

How the data were processed

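RNA of 20 kidney libraries (4 groups of 5) was made with a stranded mRNA kit and sequenced on a HiSeq4000, per the labels' protocols. The deposited counts per gene are whole reads, and FastQC 0.11.7, HISAT2, SAMtools 1.5, HTSeq 2.7.14, DESeq2 and the build mm10 are named, per the submitters' processing notes. How strand was set in counting is not given in the sources used here. A second deposited file of the authors holds log2 values of 20550 genes, whose normalization is not given in the sources used here, and it served as an alternative. The 4 count tables were joined over 24762 genes with 0 conflicting values. Where a table lacked a gene, its count was set to 0 (12045 values in 1713 genes).

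Library codes tie each column to a group and not to a numbered sample. Between libraries of a group the lowest chi-square per degree of freedom was 5.23, so none was a repeat deposit. Counts were filtered (filterByExpr), scaled by TMM and fitted as 4 group means with edgeR 4.0.16 (R 4.3.3) and its quasi-likelihood test, with Benjamini-Hochberg adjustment over all 15549 genes tested. SE is the size of the log2 change divided by the square root of F. The fit was tested on simulated data. Alternatives were other scalings and filters, DESeq2 1.42.0, limma 3.58.1 (voom, and on the log2 table), the compared groups alone, and each library left out. Per-library values are given for genes called in a genotype comparison, and for those with the smallest p for testosterone in ARLmon or the highest level per length in each class. From other lists the genes with the smallest p, and all called where 3 or fewer were, are named. The members and lists were chosen with earlier results of these data known. Of the list of receptors and kinases, 1 gene is not reported here. Gene positions are from GENCODE M21 (GRCm38). At 4119 to 21142 reads for the 43 genes together, low genes such as Oas3 rest on few reads per library.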

Additional observations from a re-analysis of the deposited data

Results flagged for a closer look

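In each of the 4 groups of 5 libraries, the highest and lowest library of each of the 43 genes was compared with the rest by Dixon's gap test. In 9 of 172 groups a library stood apart, and chance gives about 1 in 20.

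The ARLmon testosterone library GC078616 was low for Ifit1 (5.82 CPM, against 8.18 to 8.60 in the other 4 libraries), Isg15 (4.05, against 5.25 to 5.45) and Oasl2 (10.6, against 17.2 to 19.6). GC078615 of the same group was low for Ifi27 (58.2, against 77.5 to 83.3). The ARLmon vehicle library GC078617 was high for Ifi44 (28.0362 CPM, against 17.6 to 18.5) and Ifih1 (25.9, against 16.8 to 19.4), and GC078619 was low for Tap1 (16.9, against 27.7 to 31.6). The WT testosterone library GC078611 was low for Gbp3 (4.95, against 8.97 to 10.04) and Iigp1 (5.25, against 10.9 to 13.1). The cause was not tested.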

How the results depend on the processing

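No paired analysis was possible because the columns of the count tables carry library codes that give a group and no replicate number. No median of the 43 genes changed sign under any of the 29 other settings, and none of the calls reversed. Of the 31 calls between genotypes under vehicle 16 were kept in every setting, of the 24 under testosterone 9, and Gbp3 in ARLmon testosterone against WT vehicle in all of them. For testosterone in WT, where no gene was called, library size as the only scaling called 5, DESeq2 called 1, and limma on the deposited log2 values called 2, as did the fit without GC078604 and GC078618. Leaving out each library in turn gave 0 to 2 (2 without GC078604, and 1 without GC078609, GC078617 or GC078621). Under vehicle, the compared groups alone gave 18 calls, and leaving out each library gave 20 (GC078605) to 32 (GC078616). Under testosterone, library size as the only scaling and limma on the log2 values each gave 38, and the compared groups alone gave 37. Leaving out each library gave 11 (GC078611) to 27 (GC078617), with 13 without GC078610 or GC078613. Fits on fewer libraries gave fewer calls in some cases and more in others, and the cause was not tested. Library size as the only scaling shifted the median of all tested genes from 0.04 to 0.28 in that comparison, and its calls from 2431 higher and 2411 lower to 5690 and 1213. For testosterone in WT it shifted them from 1455 higher and 989 lower to 897 and 2687. Counts for testosterone in ARLmon, for ARLmon testosterone against WT vehicle and for the difference of responses did not change.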
